A study of Mus musculus with 12 samples.

Results

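This account covers 10 genes that take glucose into the heart muscle cell and set how much of it is burnt: the glucose transporter genes Slc2a1 and Slc2a4, the hexokinase genes Hk1 and Hk2, the phosphofructokinase genes Pfkm and Pfkp, and the pyruvate dehydrogenase kinase genes Pdk1, Pdk2, Pdk3 and Pdk4. They were taken by symbol from a table of 39331 gene entries, in which all 10 were present, and all 10 passed the filter on low counts. RNA was sequenced from hearts of mice with a knock-in of Lemd2 p.L13R (KI), which puts arginine in place of leucine at residue 13 of the inner nuclear membrane protein LEMD2, and from hearts of wild-type mice (WT). Each group held 6 libraries. All mice were of strain C57BL/6N, were aged 9 months and had no treatment, and the labels name no transgene or Cre. The labels do not say whether KI mice carry the allele on 1 chromosome or on both, nor whether the mice of a group were littermates. The titles of KI 1 and KI 2 each join 2 numbers, and whether these libraries hold RNA of more than 1 heart is not stated. A library is called a heart below.

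Glucose enters cardiomyocytes through GLUT1 (Slc2a1), which sits in the surface membrane without a hormone signal, and through GLUT4 (Slc2a4), which insulin and contraction bring to the surface. Hexokinase then traps it as glucose 6-phosphate, phosphofructokinase commits it to glycolysis, and the pyruvate dehydrogenase (PDH) complex turns the pyruvate formed into acetyl-CoA inside mitochondria. The PDH kinases phosphorylate that complex and switch it off, so they hold back the burning of glucose where fatty acids are the fuel. The fetal heart relies on glucose and lactate and carries much GLUT1 and hexokinase 1, whereas the adult heart burns mostly fatty acids and carries mainly GLUT4 and hexokinase 2.

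Promoters are shown here because genes of the GLUT1, hexokinase and PDH kinase families are textbook targets of the hypoxia-inducible factors. The core that these factors recognize is ACGTG or GCGTG, and only the form ACGTG, called the motif below, was searched for. RefSeq promoter windows on build GRCm38.p6 were found for 9 of the 10 genes, all but Slc2a4, and these genes have 15 annotated starts among them. The 4 windows below were chosen because they hold that motif and belong to genes of the 3 isoform ratios that differed between groups. They are the 250 bases before the start of Slc2a1, Hk2 and Pdk3 and before the first of the 2 starts of Pdk2, written along the gene's own strand, with ACGTG, or CACGT where the motif lies on the other strand, in capitals.
Slc2a1: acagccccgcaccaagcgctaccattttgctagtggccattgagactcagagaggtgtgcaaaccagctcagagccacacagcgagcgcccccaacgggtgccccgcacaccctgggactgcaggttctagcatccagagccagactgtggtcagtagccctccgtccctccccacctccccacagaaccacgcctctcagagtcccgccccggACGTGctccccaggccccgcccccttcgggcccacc
Hk2: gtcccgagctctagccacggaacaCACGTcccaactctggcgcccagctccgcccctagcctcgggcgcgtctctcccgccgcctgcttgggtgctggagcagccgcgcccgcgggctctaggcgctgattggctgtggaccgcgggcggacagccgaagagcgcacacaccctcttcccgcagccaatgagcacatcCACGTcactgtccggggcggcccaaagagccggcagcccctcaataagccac
Pdk2: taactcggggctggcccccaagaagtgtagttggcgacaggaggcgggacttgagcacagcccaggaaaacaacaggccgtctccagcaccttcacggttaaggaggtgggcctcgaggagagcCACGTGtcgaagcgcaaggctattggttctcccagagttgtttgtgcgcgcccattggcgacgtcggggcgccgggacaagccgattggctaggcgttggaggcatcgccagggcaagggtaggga
Pdk3: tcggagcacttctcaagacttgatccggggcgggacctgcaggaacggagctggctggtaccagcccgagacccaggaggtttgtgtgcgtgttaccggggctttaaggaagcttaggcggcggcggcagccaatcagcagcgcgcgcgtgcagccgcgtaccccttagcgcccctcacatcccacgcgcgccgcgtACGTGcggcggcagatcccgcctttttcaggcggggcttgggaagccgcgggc
The Slc2a1 window is chr4:119108495-119108744 on the plus strand, and its motif begins 36 bases before the start. The Hk2 window is chr6:82774455-82774704 on the minus strand and holds the motif at 226 and 52 bases before the start. The Pdk2 window is chr11:95041372-95041621 on the minus strand, where the motif stands on both strands in 1 shared run of letters, the E-box CACGTG, at 126 and 125 bases. The Pdk3 window is chrX:93832151-93832400 on the minus strand, with the motif at 53 bases. In all, 6 of the 15 windows, those of 5 genes (Pfkm is the other), held ACGTG on either strand, against 16.6% of the 32851 RefSeq windows of the same length. ACGTG was not found in the second window of Pdk2 or in any window of Hk1, Pfkp, Pdk1 or Pdk4. The form GCGTG was not searched for, so these windows cannot be said to lack the core. A match describes letters only and is no evidence that a factor binds there.

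Library totals ran from 27867517 counts in KI 3 to 44559350 counts in WT 3. The highest Xist count was 6.5, and the Y-linked genes Ddx3y, Uty, Kdm5d and Eif2s3y summed to at least 4790 counts in every library. All 12 libraries thus read as male. Genes of the mitochondrial chromosome took 30.9% to 33.9% of the counts in KI hearts, against 34.0% to 40.4% in WT hearts, and the 10 genes were also fitted without them. In KI 6 the atrial genes Myl7 (145 CPM) and Sln (52.4 CPM) stood far above all other libraries (0.43 CPM or less), and the summed level of 6 adipocyte markers was 37.6 CPM there, against 1.59 CPM or less elsewhere. KI 3, KI 4 and KI 5 share a tag in their titles that the other KI titles and all WT titles lack. Results are therefore also given with these 3 left out and with these 3 alone. The title of KI 2 carries the tag old and that of KI 6 the tag new, and the labels explain none of these tags. Values below are CPM, counts per 1000000 scaled by the trimmed mean of M values (TMM), fold changes are log2 values of KI over WT with their standard error (SE), and adjusted p-values come from the edgeR quasi-likelihood test with Benjamini-Hochberg adjustment over all 15602 genes tested. The labels do not say which part of the heart was taken. In RNA of tissue with many cell types, fewer cells of a type and less RNA per cell cannot be told apart.

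The 10 genes differed widely in level. Per kilobase of exon, Pfkm was the most abundant at 259 ± 13.5 CPM per kb in KI hearts and 275 ± 25.8 in WT hearts (SD, n = 6 each). The order below it was Pdk4 (135 ± 36.4 in KI and 151 ± 79.5 in WT), Pdk2 (114 ± 9.82 and 135 ± 14.1), Slc2a4 (94.5 ± 9.28 and 112 ± 10.4), Hk2 (42.1 ± 5.56 and 46.9 ± 4.75), Pdk1 (35.4 ± 2.72 and 40.3 ± 2.90), Hk1 (32.4 ± 3.11 and 28.2 ± 2.64), Pfkp (14.4 ± 2.28 and 11.6 ± 3.35), Slc2a1 (4.35 ± 0.73 and 3.94 ± 0.46) and Pdk3 (1.07 ± 0.22 and 0.72 ± 0.15). The order was the same in both groups. Of neighbours in it, the library ranges of Pdk4 and Pdk2, of Pdk2 and Slc2a4 and of Hk2 and Pdk1 overlapped in both groups. Pdk1 and Hk1 overlapped in KI hearts but not in WT hearts, and Pfkm and Pdk4 in WT hearts but not in KI hearts, since 1 WT heart had 247 CPM per kb of Pdk4. The other neighbours did not overlap. The authors' counts take in introns, so a level per kb of exon is approximate for genes with long introns such as Pdk3.

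Of the 10 genes, 1 rose in KI hearts, Pdk3, and none fell by edgeR. At an unadjusted p under 0.05 stood 5 of the 10. Across all genes tested, 8.75% were called in either direction, 4.41% as higher and 4.34% as lower, and 25.8% stood at an unadjusted p under 0.05. As a median, the log2 fold change was -0.12 over the 10 genes and 0.01 over all genes. The library ranges of KI and WT overlapped for every one of the 10, where 4.36% of all genes tested had ranges that did not overlap. DESeq2 and voom with quality weights, other tests run on the same counts, each called Slc2a4, Pdk1 and Pdk2 lower, beside 6.85% and 8.11% of all genes called lower by those tests. Both called Pdk3 higher, beside 6.29% of all genes by DESeq2 and 6.49% by voom.

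The transporters differed in direction, and neither passed the threshold. Slc2a4 (Gene ID 20528, chromosome 11, 69942286 to 69948216) ran from 215 to 286 CPM in KI hearts, with a median of 271, against 267 to 344 CPM and a median of 317 in WT hearts. All 6 KI hearts lay below the WT mean, and KI 3 was the lowest. The log2 fold change was -0.24 (SE 0.08, adjusted p = 0.0701). DESeq2 gave an adjusted p of 0.0373 and voom 0.0341, and scaling by library totals left -0.09 (adjusted p = 0.285). By edgeR without WT 4 it was -0.28 (adjusted p = 0.0326). Slc2a1 (Gene ID 20525, chromosome 4, 119108745 to 119137330) ran from 10.4 to 16.7 CPM in KI hearts, with a median of 14.3, against 10.2 to 14.7 CPM and a median of 12.99 in WT hearts. KI 4, KI 5 and KI 6 lay above every WT heart and KI 3 near the lowest, and the log2 fold change of 0.14 (SE 0.11) had an adjusted p of 0.452.

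Both hexokinase genes are well expressed in these hearts. Hk1 (Gene ID 15275, chromosome 10, 62268855 to 62379920), which encodes the isoform bound to mitochondria in most tissues, ran from 143 to 184 CPM in KI hearts, with a median of 153, against 125 to 156 CPM and a median of 134 in WT hearts. KI 6 was the highest, and no KI heart lay below the WT mean. It had a log2 fold change of 0.20 (SE 0.07, adjusted p = 0.104), or 0.15 without KI 6 (adjusted p = 0.194). It passed the threshold with library totals (0.35, adjusted p = 0.0117), where 19% of all genes were called higher and 1.22% lower, and with 1 surrogate variable, where 5.64% were called higher and 5.44% lower. Hk2 (Gene ID 15277, chromosome 6, 82725025 to 82774454), the insulin-responsive isoform of adult muscle, ran from 176 to 262 CPM in KI hearts, with a median of 247, against 228 to 290 CPM and a median of 275 in WT hearts. No KI heart reached the WT mean, and the lowest value was again KI 3. The log2 fold change was -0.16 (SE 0.09, adjusted p = 0.314).

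Phosphofructokinase is made in heart mostly as the muscle subunit. Pfkm (Gene ID 18642, chromosome 15, 98092589 to 98132447) ran from 698 to 810 CPM in KI hearts, with a median of 790, against 721 to 949 CPM and a median of 816 in WT hearts. Its log2 fold change of -0.09 (SE 0.06, adjusted p = 0.437) became 0.07 (adjusted p = 0.283) when libraries were scaled by their totals. Pfkp, the platelet subunit (Gene ID 56421, chromosome 13, 6579874 to 6649060), ran from 48.6 to 73.1 CPM in KI hearts, with a median of 60.6, against 34.6 to 73.6 CPM and a median of 47.6 in WT hearts. All KI hearts but KI 2 lay above 4 of the 6 WT hearts, and WT 1 was the highest of all 12 by a small margin over KI 3. The log2 fold change was 0.30 (SE 0.17, adjusted p = 0.266). Pfkp overlaps Pitrm1 on the other strand, whose count was 98.4% of that of Pfkp, and the authors' counting used strand.

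Pdk2 and Pdk1 lay lower in KI hearts without passing the edgeR threshold. Pdk2 (Gene ID 18604, chromosome 11, 95026258 to 95041371), the kinase found in most tissues, ran from 213 to 276 CPM in KI hearts, with a median of 263, against 257 to 337 CPM and a median of 306 in WT hearts. All 6 KI hearts lay below the WT mean, and the log2 fold change was -0.23 (SE 0.08, adjusted p = 0.0744). DESeq2 gave an adjusted p of 0.0419 and voom 0.0268, and edgeR without WT 1 gave -0.28 (adjusted p = 0.0369). Pdk1 (Gene ID 228026, chromosome 2, 71873215 to 71903858), the hypoxia-induced kinase, ran from 167 to 199 CPM in KI hearts, with a median of 186, against 190 to 234 CPM and a median of 207 in WT hearts. All 6 KI hearts lay below the WT mean, and the log2 fold change was -0.19 (SE 0.06, adjusted p = 0.0777). DESeq2 gave an adjusted p of 0.0378 and voom 0.0476. With library totals Pdk2 was at -0.08 (adjusted p = 0.284) and Pdk1 at -0.04 (adjusted p = 0.592).

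Pdk3 (Gene ID 236900, chromosome X, 93764616 to 93832150) was the scarcest of the 10 and the 1 that rose. It was at 2.35, 2.04, 1.88, 1.85, 2.37 and 3.09 CPM in KI 1 to KI 6, against 1.51, 2.13, 1.40, 1.21, 1.43 and 1.46 CPM in WT 1 to WT 6. Every KI heart lay above 5 of the 6 WT hearts, and WT 2 lay inside the KI range. Gm46689, a predicted gene that overlaps Pdk3 on the same strand, had a count of 0.23% of that of Pdk3. The means were 2.26 ± 0.46 CPM in KI hearts and 1.52 ± 0.32 CPM in WT hearts (SD, n = 6 each), 1.49-fold higher in KI, with a log2 fold change of 0.57 (SE 0.17, adjusted p = 0.0461 by edgeR). Behind these values stood 58 to 141 counts in each KI library and 54 to 75 in each WT library. The call lay close to the threshold. Of 24 alternative settings 7 kept it, with DESeq2 (adjusted p = 0.0202) and voom (0.0459) among them. Of the 12 fits that each left out 1 library, only that without WT 2 kept it (0.69, adjusted p = 0.0302), and in the others the adjusted p ran from 0.0518 without KI 2 to 0.0943 without WT 6. Without KI 6, the library with Myl7, Sln and adipocyte markers, the log2 fold change was 0.46 (adjusted p = 0.0873). It was 0.71 (adjusted p = 0.102) with KI 3 to KI 5 left out and 0.40 (adjusted p = 0.189) with these 3 alone.

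Pdk4 (Gene ID 27273, chromosome 6, 5483351 to 5496278), the kinase induced by fasting and fatty acids, was the most variable. It was at 372, 626, 607, 506, 365 and 347 CPM in KI 1 to KI 6, against 861, 246, 498, 687, 161 and 706 CPM in WT 1 to WT 6. WT hearts lay on both sides of the whole KI range, with WT 2 and WT 5 below it and WT 1, WT 4 and WT 6 above it. Its log2 fold change of -0.16 (SE 0.34, adjusted p = 0.811) turned to 0.03 without WT 1 and to 0.21 by voom. In WT hearts the highest value was 5.35 times the lowest, and in KI hearts 1.80 times. The coefficient of variation was 26.9% in KI hearts, above that of 82.6% of all genes tested, and 52.6% in WT hearts, above that of 96.6% of all genes.

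**Figure D1:**
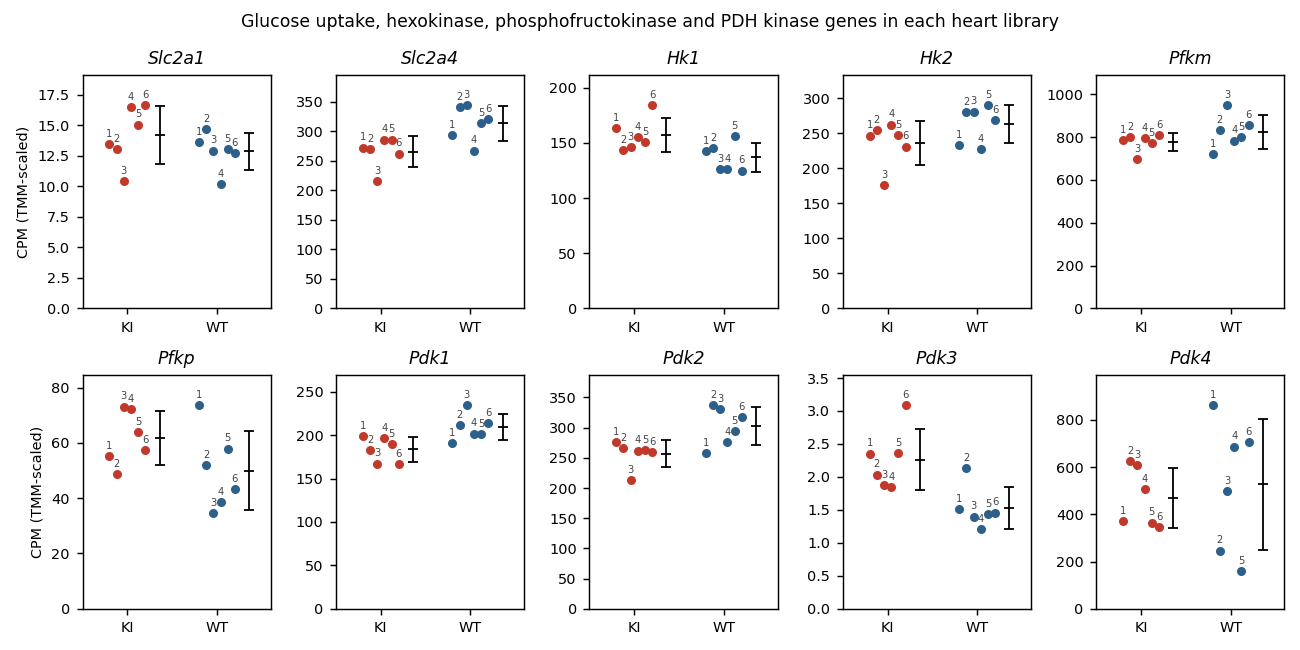
TMM-scaled CPM of each of the 10 genes in the 6 KI hearts (red) and the 6 WT hearts (blue), with replicate numbers above the points and the mean and SD beside them. KI 3 is the lowest point for Slc2a4, Hk2, Pfkm and Pdk2, all KI hearts lie above 5 of 6 WT hearts for Pdk3, and for Pdk4 the WT hearts span 161 to 861 CPM.

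The same genes were also compared as ratios of isoforms within each library, which do not depend on how libraries are scaled. Each log2 ratio was compared with a two-sided exact permutation test over the 12 libraries, for which the smallest p is 0.00216, and adjusted over the 6 ratios. The ratio of Slc2a1 to Slc2a4 ran from -4.37 to -3.98 on the log2 scale in KI hearts, against -4.73 to -4.43 in WT hearts, and the groups did not overlap. The mean difference, KI minus WT, was 0.37 (exact permutation p = 0.00216, adjusted 0.00649), 1.30-fold on the linear scale. Without KI 6 it was 0.32 (exact permutation p = 0.00433, adjusted 0.0130). It was 0.38 with KI 3 to KI 5 left out and 0.37 with these 3 alone, each with the smallest p that 3 libraries against 6 allow, 0.0238 (exact permutation, adjusted 0.0714).

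For the hexokinases, Hk1 stayed below Hk2 in every heart but less so in KI. The log2 ratio of Hk1 to Hk2 ran from -0.83 to -0.27 in KI hearts, against -1.15 to -0.71 in WT hearts, and 3 KI hearts lay above every WT heart. The difference was 0.36 (exact permutation p = 0.0108, adjusted 0.0216), 1.29-fold. It was 0.31 without KI 6 (exact permutation adjusted p = 0.0433), 0.36 with KI 3 to KI 5 left out and 0.36 with these 3 alone. For the phosphofructokinase subunits, the log2 ratio of Pfkp to Pfkm ran from -4.04 to -3.25 in KI hearts, against -4.78 to -3.29 in WT hearts. The difference of 0.42 (exact permutation p = 0.119, adjusted 0.179) passed the threshold in the 1 comparison that left out WT 1 (0.58, adjusted 0.0455).

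The kinases were each set against Pdk2. The log2 ratio of Pdk3 to Pdk2 ran from -7.15 to -6.40 in KI hearts, against -7.89 to -7.30 in WT hearts, and the groups did not overlap. The difference was 0.80 (exact permutation p = 0.00216, adjusted 0.00649), 1.74-fold. It was 0.71 without KI 6 (exact permutation adjusted p = 0.0130), 0.88 with KI 3 to KI 5 left out and 0.72 with these 3 alone. The log2 ratio of Pdk1 to Pdk2 differed by 0.05 (exact permutation p = 0.420), with KI hearts from -0.64 to -0.35 and WT hearts from -0.67 to -0.43. That of Pdk4 to Pdk2 differed by 0.26 (exact permutation p = 0.587), and ran from 0.42 to 1.51 in KI hearts, against -0.87 to 1.74 in WT hearts. Leaving out any 1 of the 12 libraries kept the calls for the Slc2a1, Hk1 and Pdk3 ratios. The counts take in introns, and in these 3 ratios the first gene has the longer span. Spans were 28586 bases for Slc2a1 and 5931 for Slc2a4, and 111066 for Hk1 and 49430 for Hk2. For Pdk3 and Pdk2 they were 67535 and 15114. Pfkp and Pdk1, in ratios not called, also have longer spans than Pfkm and Pdk2. The part of intron reads in the ratios was not tested. The share of ratios of other gene pairs that would be called, or would not overlap, was not computed. These pairs were chosen with earlier results of these data known, so the ratio calls have no background to be read against.

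**Figure D2:**
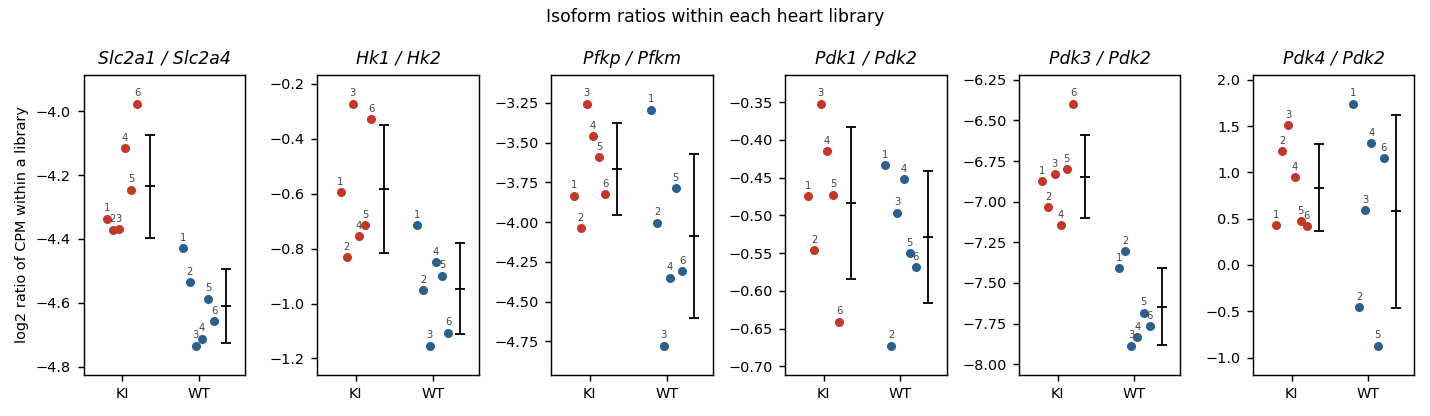
Log2 ratio of the CPM of 2 isoform genes within each library, for 6 pairs, in KI hearts (red) and WT hearts (blue), with replicate numbers above the points and the mean and SD beside them. Every KI heart lies above every WT heart for Slc2a1 over Slc2a4 and for Pdk3 over Pdk2, while Pdk4 over Pdk2 spans -0.87 to 1.74 in WT hearts.

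Scaling changes the values of single genes, while it cancels out of the ratios by construction. Scaling by library totals alone, in place of TMM, moved the median log2 fold change of all genes tested to 0.16, against 0.01. Under it Pfkm changed sign, Hk1 and Pdk3 were called higher, and the negative values of Slc2a4, Hk2, Pdk1, Pdk2 and Pdk4 lay between -0.09 and -0.01. The mitochondrial share of counts, lower in every KI heart than in every WT heart, enters the library totals. Leaving its genes out before scaling gave Pdk3 a log2 fold change of 0.57 (adjusted p = 0.0507), which missed the threshold, so that none of the 10 was called, and left the other 9 uncalled with the same sign.

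**Figure D3:**
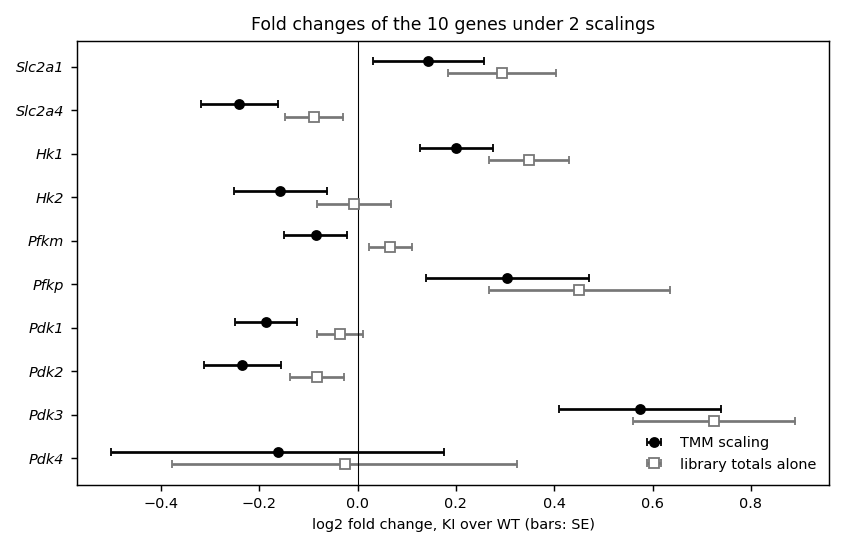
Log2 fold change, KI over WT, of the 10 genes with TMM scaling (filled circles) and with library totals alone (open squares), with bars of 1 SE. All 10 values lie further right with library totals, Pfkm at 0.07 against -0.09, and Pdk3 stays the highest.

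The 10 genes varied together in part between hearts of the same genotype. As a description over the 12 libraries, which share scaling and depth, the deviations of log2 CPM from the genotype mean correlated with Pearson's r = 0.92 between Slc2a4 and Hk2 (Spearman's rho 0.66), 0.87 between Slc2a4 and Pdk2 and 0.86 between Pfkm and Pdk2. They ran against each other for Pfkm and Pfkp (r = -0.74) and for Hk1 and Pdk4 (r = -0.68). KI 3 and WT 4 are the libraries farthest from the median for Slc2a4 and Hk2, and without them r between that pair was 0.73. Among all named genes, those closest to Slc2a4 were Oat, which encodes ornithine aminotransferase (r = 0.96), Dnajc30 (0.95) and Tbrg4 (0.95). Those closest to Slc2a1 were Ly6g5b (0.96), Dnajc21 (0.94) and Msra (0.92). For Hk2, after Slc2a4 itself, they were Wwc2 and Sipa1l2 (both 0.92). For Pfkp they were Sec22b, Syvn1 and Lman1l (all 0.93), and for Pdk3 Eral1 (0.92), Thrsp (0.91) and Clec2l (0.89).

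Pdk4 was low in WT 2 and WT 5, and so were the genes most like it. That follows in part from picking them, out of the named genes tested, by their likeness to Pdk4. The nearest to it were Ifi207 (r = 0.93, rho 0.95), Ccn1, which encodes the matricellular protein CCN1 (r = 0.93, rho 0.90), and Myc (r = 0.90, rho 0.79). Without WT 2 and WT 5, the libraries farthest from the median of Pdk4, r was 0.93 for Ifi207, 0.80 for Ccn1 and 0.74 for Myc. Ccn1 ran from 75.2 to 165 CPM in KI hearts, against 38.1 CPM in WT 2, 27.0 CPM in WT 5 and 107 to 127 CPM in the other WT hearts. Some listed genes of glucose and fat metabolism, chosen after their values were seen, were low in the same WT hearts. Txnip, whose product keeps glucose transporters from the surface and responds to glucose, ran from 708 to 812 CPM in KI hearts, against 247 CPM in WT 2, 194 CPM in WT 5 and 781 to 966 CPM in the other WT hearts. Angptl4, a secreted inhibitor of lipoprotein lipase induced by fatty acids, ran from 4.497 to 13.4 CPM in KI hearts, against 2.84 CPM in WT 2, 2.57 CPM in WT 5 and 7.21 to 28.1 CPM in the other WT hearts. Neither gene differed between genotypes by edgeR (Txnip 0.21, SE 0.33, adjusted p = 0.738; Angptl4 -0.61, SE 0.51, adjusted p = 0.480).

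**Figure D4:**
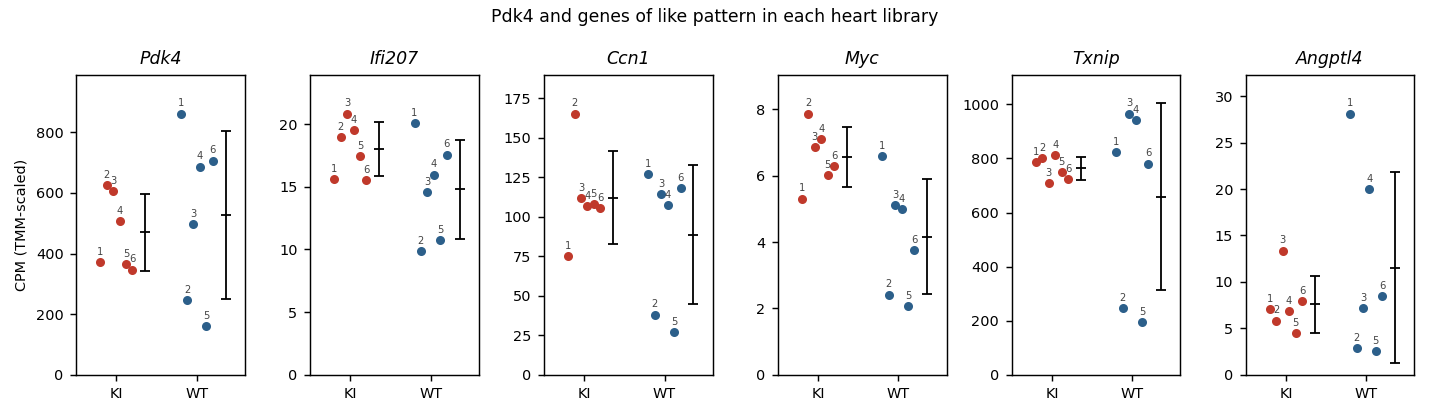
TMM-scaled CPM of Pdk4, of the 3 genes whose deviations were most like its own and of Txnip and Angptl4, in KI hearts (red) and WT hearts (blue), with replicate numbers above the points and the mean and SD beside them. WT 2 and WT 5 are the lowest of the 12 hearts for each of the 6 genes.

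The pathway around the 10 genes was read from lists. Counts called in a list are to be read against the shares of all genes tested. These were 4.41% higher and 4.34% lower by edgeR, 6.29% and 6.85% by DESeq2, and 6.49% and 8.11% by voom. Of 9 other glucose transporter and hexokinase genes tested, 1 rose and 1 fell. Slc2a10, which encodes GLUT10, ran from 2.06 to 3.79 CPM in KI hearts, against 1.62 to 2.18 CPM in WT hearts (0.57, SE 0.15, adjusted p = 0.0347). Slc2a12, which encodes the insulin-responsive GLUT12, ran from 4.11 to 6.27 CPM in KI hearts, against 5.495 to 9.01 CPM in WT hearts (-0.52, SE 0.14, adjusted p = 0.0314). All 6 KI hearts lay above the WT mean of Slc2a10 and below that of Slc2a12. Of the 12 leave-one-out fits, 3 kept the call for Slc2a10 and 5 that for Slc2a12, and without KI 6 neither was called. With KI 3 to KI 5 left out none of the 9 was called, where 0.426% of all genes were called higher and 0.138% lower. With these 3 alone 1 was called in each direction, where 4.99% of all genes were called higher and 7.44% lower.

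Of 13 further glycolysis genes tested, edgeR called none, with 3 at an unadjusted p under 0.05, 1 called higher by DESeq2 and 1 called lower by voom, and the list median was 0.01. The most abundant, Aldoa, which encodes muscle aldolase, was at 1493 ± 118 CPM in KI hearts and 1450 ± 140 CPM in WT hearts (SD, n = 6 each; 0.04, SE 0.07, adjusted p = 0.766). With library totals 6 of the 13 were called higher, where 19% of all genes were, and the median was 0.16, the same as over all genes. Of 5 genes for the enzymes that make and break fructose 2,6-bisphosphate, the activator of phosphofructokinase, none was called by edgeR, DESeq2 or voom, and 2 had an unadjusted p under 0.05. The most abundant, Pfkfb2, the cardiac isoform, ran from 76.0 to 154 CPM in KI hearts, against 90.1 to 163 CPM in WT hearts (-0.11, SE 0.18, adjusted p = 0.748).

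The complex that the kinases act on was read with the pyruvate carrier and the phosphatases. Of 10 genes for these parts, 2 fell, where 4.34% of all genes did, and all 10 had negative values, with a median of -0.17. Dld, which encodes the E3 subunit shared with other dehydrogenase complexes, ran from 329 to 410 CPM in KI hearts, against 384 to 462 CPM in WT hearts (-0.25, SE 0.07, adjusted p = 0.0394). Mpc2, a subunit of the mitochondrial pyruvate carrier, ran from 156 to 171 CPM in KI hearts, against 162 to 203 CPM in WT hearts (-0.19, SE 0.05, adjusted p = 0.0498). All 6 KI hearts lay below the WT mean of both. DESeq2 called 3 of the 10 lower and voom 5, while with library totals none was called, the median was -0.02 and 4 of the 10 values were positive. None was called with KI 3 to KI 5 left out, and 2 with these 3 alone. None was called without KI 3, KI 4, KI 5, KI 6, WT 2, WT 3, WT 5 or WT 6.

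Of 12 genes of glycogen metabolism 1 fell, where 4.34% of all genes did. This was Phkg1, the catalytic subunit of phosphorylase kinase in muscle. It ran from 6.83 to 15.6 CPM in KI hearts, against 17.2 to 21.4 CPM in WT hearts, without overlap (-0.65, SE 0.17, adjusted p = 0.0301), and lost the call without KI 4, WT 3 or WT 6. With KI 3 to KI 5 left out none of the 12 was called, and with these 3 alone 1 was called lower. Of 20 genes of insulin signalling and GLUT4 traffic 2 fell, where 4.34% of all genes did. Akt2, the kinase that carries the insulin signal to GLUT4, ran from 97.4 to 118 CPM in KI hearts, against 122 to 147 CPM in WT hearts, without overlap (-0.24, SE 0.06, adjusted p = 0.0282). Snap23, which helps vesicles fuse with the surface membrane, ran from 41.2 to 45.4 CPM in KI hearts, against 45.5 to 51.9 CPM in WT hearts, also without overlap (-0.16, SE 0.04, adjusted p = 0.0345). DESeq2 called 5 of the 20 lower and voom 7, and with library totals none was called and the list median of -0.13 became 0.01. With KI 3 to KI 5 alone 8 of the 20 were called lower, where 7.44% of all genes were, and with these 3 left out none, where 0.138% of all genes were. Leaving out 1 library left 0 (without KI 4, KI 5, WT 5 or WT 6) to 4 called.

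Target genes of the peroxisome proliferator-activated receptors (PPARs), the fatty acid sensors that also drive Pdk4, were listed without Pdk4 itself. Of 16 such genes, 8 fell and none rose by edgeR, where 4.34% of all genes fell and 4.41% rose, and the median was -0.28. DESeq2 and voom each called 8 lower and 1 higher. They called 6.85% and 8.11% of all genes lower and 6.29% and 6.49% higher. Cd36, the fatty acid transporter gene, ran from 1168 to 1602 CPM in KI hearts, against 1709 to 1871 CPM in WT hearts, without overlap (-0.41, SE 0.07, adjusted p = 0.00587). Mlycd, which encodes malonyl-CoA decarboxylase, ran from 72.2 to 80.8 CPM in KI hearts, against 86.4 to 102 CPM in WT hearts (-0.31, SE 0.06, adjusted p = 0.00645). Plin5, which encodes a lipid droplet coat protein, ran from 62.5 to 83.3 CPM in KI hearts, against 89.1 to 127 CPM in WT hearts (-0.45, SE 0.10, adjusted p = 0.0145). Acot1, an acyl-CoA thioesterase gene, ran from 5.89 to 10.0 CPM in KI hearts, against 9.08 to 16.6 CPM in WT hearts (-0.74, SE 0.14, adjusted p = 0.00992). These 4 kept their calls in all 12 leave-one-out fits, though the list's count ran from 4 (without KI 3 or KI 5) to 7. With library totals 3 were called lower and the median was -0.13, in a fit where 1.22% of all genes were called lower. With KI 3 to KI 5 left out edgeR called none of the 16, where 0.138% of all genes were called lower and 0.426% higher, and with these 3 alone it called 8 lower, where 7.44% of all genes were called lower and 4.99% higher.

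The regulators were listed by kind. Of 15 transcription factor genes of cardiac energy metabolism 2 fell, where 4.34% of all genes did. Rxra, the partner of the PPARs, had a log2 fold change of -0.28 (SE 0.05, adjusted p = 0.00679). It ran from 54.8 to 59.9 CPM in KI hearts, against 62.9 to 75.1 CPM in WT hearts, without overlap. Esrra, the estrogen-related receptor alpha gene (-0.18, SE 0.05, adjusted p = 0.0468), was called in 3 of the 12 leave-one-out fits. With KI 3 to KI 5 left out none of the 15 was called, and with these 3 alone 2 were called lower. Of 14 hypoxia-inducible genes outside the 10, 2 fell, where 4.34% of all genes did. Egln1, which encodes the oxygen sensor prolyl hydroxylase 2 (-0.30, SE 0.07, adjusted p = 0.0188), was called in all 12 leave-one-out fits. Mxi1, a MYC antagonist (-0.21, SE 0.06, adjusted p = 0.0350), was called in 5 of them. None of the 14 was called with KI 3 to KI 5 left out, with these 3 alone or with library totals. Of all genes, 0.138%, 7.44% and 1.22% were called lower in these fits. The hypoxia list's median was -0.05, and 0.10 with library totals. Of 11 genes of the glucocorticoid and fasting response 1 rose, where 4.41% of all genes did. This was Cebpd, a transcription factor gene (0.83, SE 0.21, adjusted p = 0.0288). It ran from 13.3 to 25.5 CPM in KI hearts, against 6.37 to 15.6 CPM in WT hearts. This list's median was 0.48. Voom called 5 of its genes higher, where 6.49% of all genes were, and DESeq2 2, where 6.29% were. Leaving out 1 library left 0 (without KI 3, KI 4 or WT 2) to 4 (without WT 1) called. With KI 3 to KI 5 left out none of the 11 was called, and with these 3 alone 1 was called higher.

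Of 13 circadian clock genes edgeR called none, with 3 at an unadjusted p under 0.05, 1 called lower by DESeq2 and 1 called in each direction by voom. The most abundant, Tef, ran from 110 to 202 CPM in KI hearts, against 81.7 to 234 CPM in WT hearts (0.27, SE 0.24, adjusted p = 0.521). Arntl, chosen after its values were seen, ran from 1.32 to 9.84 CPM in KI hearts, against 1.68 to 31.4 CPM in WT hearts (-1.58, SE 0.59, adjusted p = 0.109). The time of day at which hearts were taken is not given in the labels. The nuclear-retained RNAs Neat1 and Malat1 were not called by edgeR, DESeq2 or voom, and neither had an unadjusted p under 0.05. Malat1 ran from 286 to 696 CPM in KI hearts, against 321 to 691 CPM in WT hearts (0.10, SE 0.25, adjusted p = 0.848).

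**Figure D5:**
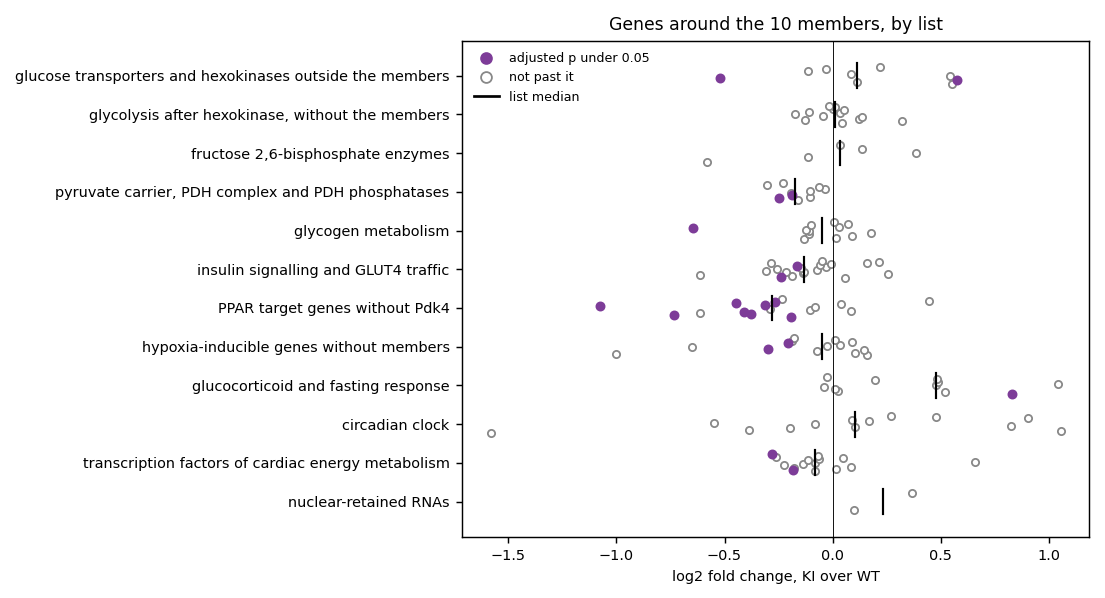
Log2 fold change, KI over WT, of each gene tested in 12 lists around the 10 genes, with genes past an adjusted p of 0.05 filled and the list median as a bar. All 10 values of the pyruvate carrier and PDH list lie left of 0, and the PPAR target list holds 8 filled points, all on the left.

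Markers of other cells moved with genotype in part. Of 8 fibroblast markers 3 rose, where 4.41% of all genes did. Of the 8, 7 had an unadjusted p under 0.05, where 25.8% of all genes did. All 8 values were positive, with a median of 0.44. Their summed level ran from 1646 to 3223 CPM in KI hearts, highest in KI 6, against 1537 to 1855 CPM in WT hearts. Of 3 atrial markers tested 2 rose, and all 3 had an unadjusted p under 0.05. The sum of all 6 was 371, 202, 1305, 1626, 1267 and 2321 CPM in KI 1 to KI 6, again highest in KI 6. In WT hearts it ran from 40.6 to 383 CPM. Myl7 and Sln were at 0.43 CPM or less outside KI 6, so the high sums of KI 3 to KI 5 came from other genes of the list. Of 8 endothelial markers edgeR called none, with none at an unadjusted p under 0.05, and their sum ran from 997 to 1252 CPM in KI hearts, against 988 to 1180 CPM in WT hearts. Of 7 macrophage and leukocyte markers tested edgeR called none, with 3 at an unadjusted p under 0.05. The 8 ventricular cardiomyocyte markers, abundant in every library, held 1 gene that fell, and all 8 values were negative, with sums from 44323 to 50765 CPM in KI hearts, against 46602 to 55104 CPM in WT hearts. Slc2a1, Hk1 and Pdk3 were highest in KI 6, and beyond the values without KI 6 the part of these cell types in the results for the 10 genes was not tested.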

How the data were processed

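Per the labels' protocols, heart RNA went into libraries made with the TruSeq Stranded mRNA kit. The submitters' processing notes name cutadapt 2.5, STAR 2.7.2b and featureCounts 1.6.4. What the authors deposited are expected counts for each gene, without normalization. Per the file headers, reverse-strand reads were counted over whole gene spans, introns included, on RefSeq GRCm38.p6, with multi-mapping and overlapping reads split as fractions, so near-identical genes can share reads.

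The expected counts were rounded to whole numbers, and each library held 27867517 to 44559350 counts. Genes were kept by filterByExpr (minimum count 10, minimum total 15), libraries were scaled by TMM, and KI was compared with WT by the edgeR 4.0.16 quasi-likelihood test without covariates, under R 4.3.3, with Benjamini-Hochberg adjustment and a threshold of 0.05. The procedure was tested on simulated data. Log2 CPM used a prior count of 2. Levels per kb used exon lengths from GENCODE on GRCm38. Isoform ratios were compared by exact permutation tests. Alternatives were RLE factors, library totals, other filters, unrounded counts, DESeq2 1.42.0, voom (limma 3.58.1), sva 3.50.0, a replicate block, no mitochondrial genes, KI 3 to KI 5 left out or alone, and each library left out.

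The 10 genes, the gene lists and the tests were chosen with earlier results of these data known. The text names the 10 genes, up to 4 called members of each list or its most abundant member where none was called, and for 6 of the genes the 3 genes most like each, predicted gene models aside. Genes outside this rule are marked. Replicate numbers follow the sample descriptions, and nothing says that equal numbers share a litter or batch. No 2 libraries were near-identical. Each title carries a number of its own, but nothing states that each is a separate animal, so p-values measure the spread between these libraries, which may be technical in part.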

Additional observations from a re-analysis of the deposited data

Results flagged for a closer look

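In 5 of the 32 sets of 6 values looked at, 1 library lay so far from the rest that its gap to the nearest value, over the range, passed Dixon's critical value, which chance gives in about 5% of sets. KI 3, the library with the lowest total, was the lowest of the KI hearts in 4 of them, at 215 CPM for Slc2a4, 176 CPM for Hk2, 698 CPM for Pfkm and 213 CPM for Pdk2. The deviations of these genes correlated with each other (r from 0.69 to 0.92), so these 4 sets are not independent, and the 5% does not apply to their number. Without KI 3 the log2 fold change of Slc2a4 was -0.19 (edgeR adjusted p = 0.121) and that of Pdk2 -0.19 (adjusted p = 0.139), and the ratio of Slc2a1 to Slc2a4 differed by 0.40 (exact permutation adjusted p = 0.0130). Beyond these values, the part of its depth was not tested. In the other set, WT 2 had the highest Pdk3 value of the WT hearts, 2.13 CPM, and without it the log2 fold change of Pdk3 was 0.69 (edgeR adjusted p = 0.0302).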

How the results depend on the processing

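The counts of genes called depend on scaling, test and libraries. Higher and lower genes numbered 2957 and 191 with library totals and 68 and 22 with KI 3 to KI 5 left out. Lower genes numbered 1067 with DESeq2, 1265 with voom and 1195 with only KI 3 to KI 5. The 12 leave-one-out fits gave 390 to 714 higher genes and 338 to 833 lower ones, against 688 and 677 with all libraries. Among the 10 genes, 2 were called higher with library totals and with 1 surrogate variable, 3 lower with DESeq2 and with voom, and 0 higher with RLE factors, no filter, no mitochondrial genes, KI 3 to KI 5 left out, or those 3 alone. In the leave-one-out fits 0 to 1 were called higher, and 0 to 1 lower (Pdk2 without WT 1, Slc2a4 without WT 4).

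Values that changed sign were Pfkm (0.067) and Pfkfb2 (0.041) with library totals, Pdk4 (0.21) and Aldoa (-0.00047) with voom, Malat1 with 1 surrogate variable (-0.0094) and with KI 3 to KI 5 left out (-0.11), and Aldoa (-0.019) and Pfkfb2 (0.12) with those 3 alone. Across the leave-one-out fits, Malat1 ran from -0.019 (without KI 2) to 0.24, Pdk4 from -0.35 to 0.033 (without WT 1), Aldoa from -0.0037 (without WT 4) to 0.081 and Pfkfb2 from -0.26 to 0.019 (without WT 6). The cause was not tested.

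With KI 3 to KI 5 left out or alone, 3 hearts stood against 6, where an exact permutation p cannot go below 0.0238, and 0 ratios passed. The differences were 0.38 and 0.37 (adjusted p 0.0714 in both) for Slc2a1 over Slc2a4, 0.36 and 0.36 (0.0952 and 0.107) for Hk1 over Hk2, and 0.88 and 0.72 (0.0714 in both) for Pdk3 over Pdk2. Pdk1 over Pdk2 reversed to -0.025 with the 3 left out. Without any 1 library the differences ran from 0.32 to 0.41 for Slc2a1 over Slc2a4, 0.30 to 0.41 for Hk1 over Hk2, 0.71 to 0.87 for Pdk3 over Pdk2, 0.28 to 0.58 for Pfkp over Pfkm, 0.02 to 0.08 for Pdk1 over Pdk2 and -0.035 to 0.49 for Pdk4 over Pdk2, with 3 to 4 called.

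The deviations of same-numbered libraries from their genotype means had correlations of -0.28 to 0.04. These values show no likeness within pairs but cannot tell whether equal numbers share a litter or batch. With the replicate number as a block, 220 genes were higher and 212 lower, 0 of the 10 genes were called higher, and Pdk4 was at 0.017. An exact sign-flip test of the 6 same-numbered differences, which cannot go below p = 0.0312, called 0 ratios, with 0.37, 0.36 and 0.80 for the Slc2a1, Hk1 and Pdk3 ratios (adjusted p 0.0625 each).

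Depth limits Pdk3 most, which had as few as 54 counts in a library, and the other 9 genes had at least 322.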

Other observations

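WT 2 and WT 5, the hearts lowest in Pdk4, were also the lowest WT hearts for Irs2, the insulin receptor substrate gene that fasting induces in liver, and for Ucp3, a mitochondrial carrier gene induced by fatty acids. Both genes were chosen after their values were seen. Irs2 ran from 15.7 to 48.4 CPM in KI hearts, against 12.1 CPM in WT 2, 10.99 CPM in WT 5 and 21.0 to 34.6 CPM in the other WT hearts. Ucp3 ran from 24.9 to 52.4 CPM in KI hearts, against 20.02 CPM in WT 2, 15.7 CPM in WT 5 and 34.5 to 104 CPM in the other WT hearts. Chow was freely available, per the labels, and the time of day of collection is not given. The last numbers in the titles of WT 2 and WT 5 lie closer to each other than to that of any other WT heart. The same holds for WT 3 and WT 4 and for WT 1 and WT 6. The labels do not explain these numbers, and whether WT 2 and WT 5 share a batch was not tested.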
